A study of Homo sapiens with 4 samples.

Results

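The genes described here encode secreted inflammatory cytokines and chemokines. They were taken from the gene table by symbol and not by a cutoff on their values, although earlier results of these data were known. They are the chemokines CXCL8, CXCL1, CXCL2, CXCL3, CCL20 and CCL5, the interleukins IL1A, IL1B and IL11, and the growth factor CSF2, 10 of the 28198 genes in the table. IL6 itself was left out by the rule, whereas IL11, which signals through the same gp130 subunit as IL6 and is commonly placed in the IL-6 family, was listed and is kept. All 10 of the 10 genes averaged at least 1 FPKM over the 4 libraries (fragments per transcript kilobase, scaled to each library's mapped fragments), a minimum that 10905 genes passed.

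The study asked whether METTL3, the catalytic subunit of the complex that writes N6-methyladenosine (m6A) on mRNA, acts on translation when it is held in the cytoplasm. The human breast cancer line MDA-MB-231 had been depleted of its own METTL3 and given back by lentivirus either wild-type METTL3 (METTL3-WT cells) or the acetylation-mimetic METTL3-K177Q, with glutamine in place of a lysine (METTL3-K177Q cells). Extracts of cycloheximide-treated cells were spread on sucrose gradients, and the fractions were pooled into a sub-polysome sample, which holds free mRNA, ribosomal subunits and single ribosomes, and a polysome sample, which holds mRNA carrying several ribosomes. Sequencing of poly(A)-selected RNA from each fraction and genotype gave the 4 libraries analysed, all of replicate 2, so each condition has 1 library and no value below has a replicate error. Accordingly, no difference was tested between genotypes or fractions, and the intervals given are approximate 95% counting intervals that leave out all variation between cultures, gradients and library preparations.

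Cytokine and chemokine mRNAs are as a rule made in bursts and destroyed quickly. CXCL8 and CXCL1, CXCL2 and CXCL3 draw neutrophils through the receptors CXCR1 and CXCR2, CCL20 acts on CCR6, and CCL5 draws T cells and monocytes. IL1A and IL1B share the receptor IL1R1, CSF2 (GM-CSF) drives myeloid cells, and IL11 acts on stromal and epithelial cells and on bone. Transcription of most of them is switched on by NF-kB, and a shared feature of such mRNAs is the AU-rich element, a run of ATTTA pentamers in the 3′ untranslated region (UTR) that binds proteins of mRNA decay and translation. The mRNAs are short, which limits the number of ribosomes that each can carry at one time.

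The AU-rich stretches are shown because they are a sequence feature that nearly all of these mRNAs share. For each gene, the 30 bases of the 3′ UTR with the most ATTTA copies are printed as DNA in the sense of the mRNA, 5′ to 3′, with ATTTA in capitals, from the canonical GENCODE 44 transcript on GRCh38. Each lies in exonic sequence, and the distance is that from the stop codon to the window along the transcript.
CXCL8: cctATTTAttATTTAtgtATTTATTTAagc (chr4:73743111-73743140, plus strand, 647 bases)
CXCL1: aagtcttctATTTATTTATTTAttcattag (chr4:73870673-73870702, plus strand, 137 bases)
CXCL2: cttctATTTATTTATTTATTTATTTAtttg (chr4:74097586-74097615, minus strand, 141 bases)
CXCL3: gttctacttATTTAtgtATTTAtttttgaa (chr4:74037082-74037111, minus strand, 151 bases)
IL1A: tATTTAtatatgtATTTAtaaatatATTTA (chr2:112774424-112774453, minus strand, 614 bases)
IL1B: cgcttccctATTTATTTATTTAtttgtttg (chr2:112829995-112830024, minus strand, 337 bases)
IL11: ccagatcttATTTATTTATTTAtttcagta (chr19:55365943-55365972, minus strand, 35 bases)
CSF2: aaaatATTTATTTATTTATTTATTTAagtt (chr5:132076076-132076105, plus strand, 224 bases)
CCL20: tgtattttatgttATTTAtagctgtaggtt (chr2:227817282-227817311, plus strand, 199 bases)

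CXCL2 and CSF2 held 5 copies of ATTTA in this window, CXCL8 held 4, CXCL3 held 2, CCL20 held 1 and the other genes shown held 3. The whole 3′ UTR held 10 copies in CXCL2, 9 in CXCL8 and in IL11, 8 in CSF2, 7 in CXCL3, 6 in CXCL1 and in IL1B, 5 in IL1A, 3 in CCL20 and 0 in CCL5. Copies were searched on the RNA strand only, and neighbouring copies can share a base. Across the 10284 mRNAs with a canonical transcript that averaged 1 FPKM or more, 71.0% held at least 1 copy, against 90% of the cytokine and chemokine mRNAs. The denser arrangements set the group further apart. At least 3 copies within 30 bases were found in 7 of the 10 mRNAs and in 2.67% of all mRNAs, and the nonamer TTATTTATT, which contains the pentamer, was found in 70% and in 8.84%. The median density was 7.48 copies per kilobase of 3′ UTR in the group and 1.61 over all mRNAs. For CCL5, the 3′ UTR depends on the transcript model, because the canonical transcript has a coding sequence of 465 bases and another annotated transcript has one of 276 bases.

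**Figure D1:**
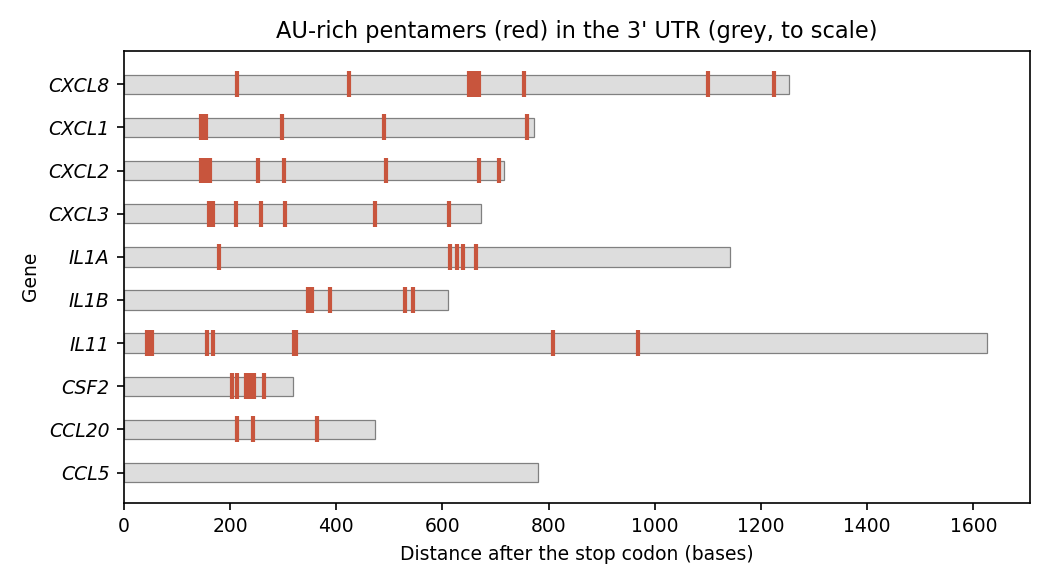
Map of the 3′ UTR of each of the 10 mRNAs, drawn to scale as a grey bar from the stop codon (x axis, distance in bases), with a red mark at each ATTTA pentamer. The pentamers of CXCL1, CXCL2, IL1B, IL11 and CSF2 sit in tight runs, the 3 of CCL20 are spread out, and the CCL5 transcript has 0.

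The rest of the transcripts was short. In the canonical transcripts the coding sequence ran from 291 bases in CCL20 to 816 bases in IL1A. Its median was 379.5 bases against 1320 bases over all mRNAs, and the median 5′ UTR had 76.5 bases against 129 bases. The range and median of coding length take CCL5 at 465 bases, and with its transcript of 276 bases CCL5 would be the shortest. An ATG upstream of the coding sequence was present only in IL11 among the 10 transcripts, compared with 37.6% of all mRNAs. The pentamer GGACT, a frequent context of m6A, was found on the RNA strand in 5 of the 10 transcripts, with 4 copies each in IL1B and IL11, 2 in CCL20 and 1 each in CXCL3 and CSF2. It was found in 90.4% of all mRNAs, which are longer, and the median density was 0.465 copies per kilobase in the group against 0.930. A match of letters says nothing about whether the base was methylated.

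CXCL8, CXCL1, IL11 and CSF2 made up most of the cytokine and chemokine mRNA in these cells. Together they held 92.3% of the FPKM of the 10 genes in sub-polysome and 90.4% in polysome RNA of METTL3-WT cells, and 92.9% and 89.2% in METTL3-K177Q cells. The 10 genes summed to 1302 and 1174 FPKM in the sub-polysome and polysome libraries of METTL3-WT cells, and to 1425 and 1078 FPKM in those of METTL3-K177Q cells. As a share of all FPKM, these sums stayed between 0.137% and 0.145%. By mean FPKM the order was CXCL8, IL11, CSF2, CXCL1, IL1B, CXCL2, CXCL3, IL1A, CCL20 and CCL5, from 401 FPKM (rank 352 of 10905 genes) to 1.67 FPKM (rank 9889). Each gene was above the next in all 4 libraries, except that IL11 against CSF2, CSF2 against CXCL1 and CXCL3 against IL1A kept this order in 2 of the 4.

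**Figure D2:**
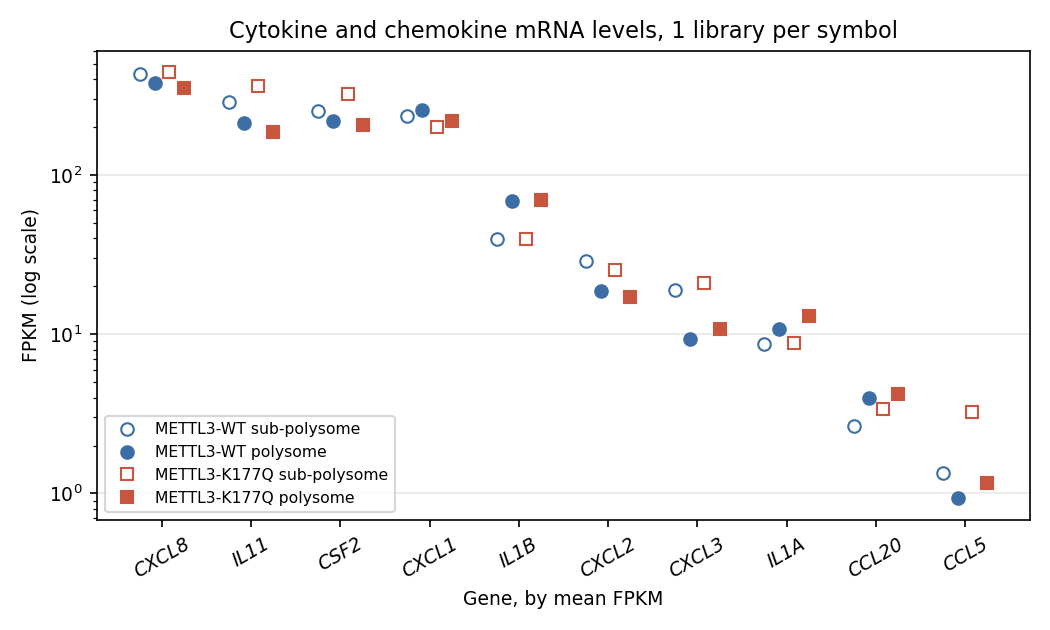
FPKM (y axis, log scale) of each gene (x axis, by mean FPKM) in the 4 libraries, 1 symbol per library, with METTL3-WT as circles, METTL3-K177Q as squares, sub-polysome as open and polysome as filled symbols. The genes span from 0.930 FPKM for CCL5 to 442 FPKM for CXCL8, and the METTL3-K177Q sub-polysome symbol of CCL5 stands above its other 3.

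CXCL8 (chr4:73740519-73743716, plus strand, 4 exons), the main neutrophil attractant of the group, had 432 FPKM in sub-polysome and 377 FPKM in polysome RNA of METTL3-WT cells, and 442 and 352 FPKM in METTL3-K177Q cells. In FPKM, both polysome values thus lay below both sub-polysome values. With every library scaled to the same total (TPM), the METTL3-K177Q polysome value lay above the sub-polysome value of the same cells. Translation efficiency, the polysome FPKM divided by the sub-polysome FPKM after 0.1 was added to each, was 0.874 in METTL3-WT and 0.796 in METTL3-K177Q cells. On the log2 scale the ratio of these efficiencies, METTL3-K177Q over METTL3-WT, was -0.13 (counting interval -0.18 to -0.09), and it came from a polysome value 1.07-fold lower and a sub-polysome value 1.02-fold higher. This sign depended on the scaling, since the log2 ratio was 0.16 under TPM, in which every library has the same total. The 3 other genes whose pattern over the 4 libraries was most like that of CXCL8, among 5371 genes averaging 10 FPKM or more, were MFF, SNX3 and UBE2M, with root-mean-square differences of 0.0081, 0.018 and 0.020 on the log2 scale after each gene was centred on its mean.

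CXCL1 (chr4:73869393-73871308, plus strand, 4 exons) had 234 and 254 FPKM in the sub-polysome and polysome libraries of METTL3-WT cells and 199 and 219 FPKM in those of METTL3-K177Q cells. In FPKM it was the only one of the 4 neutrophil-attracting chemokines with more in the polysome than in the sub-polysome library, by 1.09-fold and 1.10-fold. Under TPM, CXCL8 also had more in the polysome library in METTL3-K177Q cells. Both METTL3-K177Q values lay below those of METTL3-WT, the log2 differences being -0.24 in the sub-polysome and -0.21 in the polysome fraction, so that the efficiency ratio was 0.02 (counting interval -0.05 to 0.09). CXCL2 (chr4:74097040-74099196, minus strand, 4 exons) had 28.8 and 18.8 FPKM in METTL3-WT and 25.3 and 17.2 FPKM in METTL3-K177Q cells, again with both METTL3-K177Q values below their METTL3-WT counterparts, although the counting interval of the polysome difference included 0. Its efficiency ratio was 0.06 on the log2 scale (counting interval -0.17 to 0.29). CXCL3 (chr4:74036589-74038807, minus strand, 4 exons) had 18.8 and 9.39 FPKM in METTL3-WT and 21.0 and 10.8 FPKM in METTL3-K177Q cells. Here both METTL3-K177Q values were the higher ones, by log2 0.16 and 0.20, and neither counting interval left out 0. The efficiency ratio of CXCL3 was 0.05 (counting interval -0.25 to 0.34). The study listed CXCL3 among transcripts lower in METTL3-K177Q cells, in RNA not separated on gradients, which is a different measure.

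CXCL1, CXCL2 and CXCL3 are close relatives, and they stood apart from each other in translation efficiency by similar amounts in both genotypes. The log2 efficiency of CXCL1 was above that of CXCL2 by 0.73 (counting SE 0.083) in METTL3-WT and by 0.70 (0.089) in METTL3-K177Q cells. CXCL2 in turn was above CXCL3 by 0.38 (counting SE 0.13) and 0.40 (0.13). Between CXCL1 and CXCL3 the gap was 1.12 and 1.09. Their coding sequences align over 324 bases without a gap, with identities of 93.5% between CXCL1 and CXCL2, 90.7% between CXCL1 and CXCL3 and 94.4% between CXCL2 and CXCL3, whereas CXCL8 was 52.5% to 56.1% identical to them. Exact stretches of 50 bases shared between 2 of the 3 transcripts made up at most 5.63% of such stretches, and 0 stretches of 100 bases were shared. It is not known how reads from shared stretches were divided, and this share does not bound the uncertainty of the separate values. CXCL1 was 7.86 to 13.5 times as abundant as CXCL2 across the libraries, so misplaced CXCL1 reads could weigh more on CXCL2. The counting SE leaves this out. Summed over the 3 genes, the FPKM was 282 and 283 in the sub-polysome and polysome libraries of METTL3-WT and 245 and 247 in those of METTL3-K177Q cells, a log2 efficiency ratio of 0.01.

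Upstream of these genes an identical 11-base match to the NF-kB motif is found, shown here because CXCL1, CXCL2 and CXCL3 share it. The motif was GGGRNNYYCC, where R is A or G, Y is C or T and N is any base. It was searched on both strands, with overlapping matches merged, in the RefSeq promoter windows of GRCh38.p14. These run from 250 bases before to 50 bases after the transcript start. Windows were given for 9 of the 10 genes, all but CCL5. The match is in capitals within 30 bases, 5′ to 3′ on the strand of the gene.
CXCL1: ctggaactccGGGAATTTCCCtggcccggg (chr4:73869304-73869333, plus strand, match 79 to 69 bases before the start)
CXCL2: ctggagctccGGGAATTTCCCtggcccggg (chr4:74099254-74099283, minus strand, match 78 to 68 bases before the start)
CXCL3: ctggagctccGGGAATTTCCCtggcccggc (chr4:74038749-74038778, minus strand, match 79 to 69 bases before the start)
CCL20: tgatcaatggGGAAAACCCCatgtggcaac (chr2:227813753-227813782, plus strand, match 79 to 70 bases before the start)
Thus 4 of 9 windows (44.4%) held a match, against 11.3% of 35116 promoter windows. The matches of CXCL1, CXCL2 and CXCL3 lie in nearly identical stretches of related genes, so they are not independent. The windows of CXCL8, IL1A, IL1B, IL11 and CSF2 held no match. Sites that depart from this pattern were not counted, so a missing match does not show that a promoter lacks an NF-kB site. These matches are letters in a window and were not tied to binding in these cells.

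The interleukin-1 genes, which encode the founding cytokines of the IL-1 family, had more FPKM in the polysome than in the sub-polysome library. IL1B had the highest translation efficiency of the group in both genotypes. In METTL3-WT cells its log2 lead over CCL20 was 0.22 (counting SE 0.25), so first place was not resolved. Relative to the trend on coding length, CCL20 was above IL1B, by log2 1.22 against 0.63 in METTL3-WT and 1.28 against 0.76 in METTL3-K177Q cells. IL1B (chr2:112829751-112836816, minus strand, 7 exons) had 39.7 FPKM in sub-polysome and 68.3 FPKM in polysome RNA of METTL3-WT cells, and 39.8 and 70.0 FPKM in METTL3-K177Q cells. Both polysome values were above both sub-polysome values, and the genotypes nearly coincided. The efficiency of IL1B was 1.72 in METTL3-WT and 1.76 in METTL3-K177Q cells, with a log2 ratio of 0.03 (counting interval -0.09 to 0.16). IL1A (chr2:112773925-112784493, minus strand, 7 exons) had 8.64 and 10.8 FPKM in METTL3-WT and 8.75 and 12.9 FPKM in METTL3-K177Q cells, so the sub-polysome values were close and the METTL3-K177Q polysome value was the highest of the 4. Its efficiency was 1.25 and 1.47, and its log2 ratio of 0.23 (counting interval -0.01 to 0.48) was the highest of the 10 genes, although its interval overlapped that of CXCL2 and it lay below CXCL2 with the coding-length trend removed. IL1B was 4.55 to 6.30 times as abundant as IL1A in FPKM across the libraries. The log2 efficiency of IL1B was above that of IL1A by 0.45 (counting SE 0.10) in METTL3-WT and by 0.25 (0.10) in METTL3-K177Q cells.

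IL11 and CSF2 had similar levels and similar differences between the genotypes, with more mRNA in the sub-polysome and slightly less in the polysome fraction of METTL3-K177Q cells. IL11 (chr19:55364382-55370463, minus strand, 5 exons) had 286 FPKM in sub-polysome and 213 FPKM in polysome RNA of METTL3-WT cells. In METTL3-K177Q cells it had 362 and 185 FPKM, the highest and the lowest of its 4 values. Its efficiency was 0.745 in METTL3-WT and 0.513 in METTL3-K177Q cells, which is 1.45-fold lower, a log2 ratio of -0.54 (counting interval -0.59 to -0.49) at percentile 8.22 of all genes. The sub-polysome value was 1.27-fold higher and the polysome value 1.15-fold lower. CSF2 (chr5:132073789-132076170, plus strand, 4 exons) had 250 and 217 FPKM in METTL3-WT and 321 and 205 FPKM in METTL3-K177Q cells, again with the extremes in METTL3-K177Q. Its efficiency went from 0.866 to 0.641, 1.35-fold lower, with a log2 ratio of -0.43 (counting interval -0.52 to -0.35) at percentile 12.6. Most of this difference lay in the sub-polysome value, 1.28-fold higher, while the polysome value was 1.06-fold lower. The ratio of IL11 to CSF2 was between 0.903 and 1.14 across the libraries, and their log2 efficiency ratios differed by 0.10 (counting interval 0.01 to 0.20).

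CCL20 and CCL5 were the least abundant members, and the fragments behind their values were few. CCL20 (chr2:227805739-227817564, plus strand, 4 exons) had 2.66 and 3.96 FPKM in METTL3-WT and 3.39 and 4.23 FPKM in METTL3-K177Q cells, from about 59, 85, 70 and 89 fragments. Its polysome value was the higher one in each genotype. The log2 efficiency ratio of -0.25 had a counting interval of -0.91 to 0.41, so no difference was detectable at this depth. CCL5 (chr17:35871491-35880793, minus strand, 4 exons) had 1.35 and 0.930 FPKM in METTL3-WT and 3.23 and 1.17 FPKM in METTL3-K177Q cells, from about 47, 31, 104 and 38 fragments. The METTL3-K177Q sub-polysome library stood above the other 3 libraries, 2.31-fold above that of METTL3-WT cells (log2 1.21, counting interval 0.71 to 1.70). The polysome values differed by log2 0.30 (counting interval -0.39 to 0.98). Translation efficiency of CCL5 was therefore 1.88-fold lower in METTL3-K177Q cells, from 0.713 to 0.380, with a log2 ratio of -0.91 whose counting interval ran from -1.75 to -0.06.

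Within METTL3-WT cells, the log2 translation efficiency ran from -0.996 for CXCL3 to 0.78 for IL1B, with a median of -0.20 over the 10 genes and 0.14 over all 10905 genes. IL1B was at least 1.5-fold higher in the polysome than in the sub-polysome library, as were 28.1% of all genes, and CXCL2 and CXCL3 were at least 1.5-fold lower, as were 19.1% of all genes. In METTL3-K177Q cells the median was -0.44 over the 10 genes against 0.16 over all genes. IL1B was again the gene at least 1.5-fold higher (30.2% of all genes), and CXCL3, IL11, CSF2 and CCL5 were at least 1.5-fold lower (21.3% of all genes). CXCL2 had 1.53-fold less in the polysome library of METTL3-WT and 1.47-fold less in that of METTL3-K177Q cells, on either side of the threshold with nearly equal values. These calls also rest on the scaling. Under TPM, 34.2% and 50.2% of all genes were at least 1.5-fold higher in METTL3-WT and METTL3-K177Q cells, and 15.7% and 12.6% lower. CCL20 then joined IL1B as higher in both genotypes, as did IL1A in METTL3-K177Q cells. Only CXCL3 in METTL3-WT and CCL5 in METTL3-K177Q cells were still lower by as much. With each library rescaled to the same total (TPM), the medians of the 10 genes were -0.066 and -0.0086 in METTL3-WT and METTL3-K177Q cells against 0.28 and 0.59 for all genes, so the signs of efficiencies near 0 depend on the scaling, whereas the distance between the medians stayed at -0.34 and -0.60. Once the coding-length trend was taken out, this distance turned, the medians of the 10 genes being 0.30 and 0.61 against 0.19 and 0.23 for all genes. In METTL3-WT cells the neighbours in this order that differed by more than their counting intervals were IL1A and CXCL1, CXCL1 and CXCL8, CSF2 and IL11, and CXCL2 and CXCL3. In METTL3-K177Q cells they were IL1B and IL1A, CXCL1 and CXCL8, CXCL8 and CXCL2, and CSF2 and CXCL3.

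**Figure D3:**
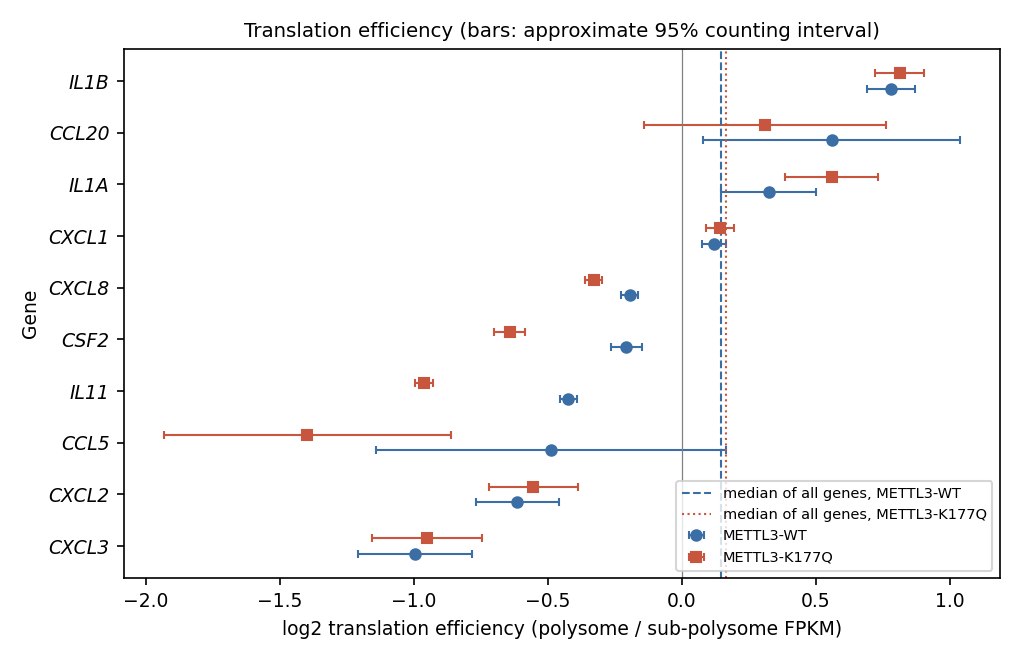
log2 translation efficiency (x axis, polysome over sub-polysome FPKM) of each gene (y axis) in METTL3-WT (blue circles) and METTL3-K177Q cells (red squares), with approximate 95% counting intervals as bars and the medians of all genes as vertical lines. IL11, CSF2, CXCL8, CCL20 and CCL5 lie further left in METTL3-K177Q cells, IL1A lies further right, and the symbols of CXCL1, CXCL2, CXCL3 and IL1B nearly overlap.

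Between the genotypes, translation efficiency was higher in METTL3-K177Q cells by 1.5-fold or more for 0 of the 10 genes, compared with 4.08% of all genes, and lower by as much for CCL5 alone, compared with 7.03% of all genes. A count of 1 in 10 is close to that share of all genes. The log2 efficiency ratio had a median of -0.06 over the 10 genes and -0.01 over all genes, whose SD was 0.455, with 5 of the 10 above 0 and 5 below. In the polysome fraction, 0 genes were at least 1.5-fold higher (2.13% of all genes) and 0 at least 1.5-fold lower (3.13%), and the median log2 ratio was -0.02 both for the 10 genes and for all genes. In the sub-polysome fraction, CCL5 was at least 1.5-fold higher (4.01% of all genes), 0 genes were at least 1.5-fold lower (2.94%), and 8 of the 10 genes had a ratio above 0, as did 5392 of all 10905 genes, with a median of 0.09 against -0.004 over all genes (-0.11 and -0.21 under TPM). This count rests on the scaling, since 4 of the 8 turn sign under TPM, and 5 of the 10 lay above and 5 below the trend on coding-sequence length. The efficiency ratio is made from the same libraries as these 2 ratios and is not independent of them. FPKM is relative within a library, and in bulk RNA fewer cells with a transcript and less of it per cell cannot be told apart.

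**Figure D4:**
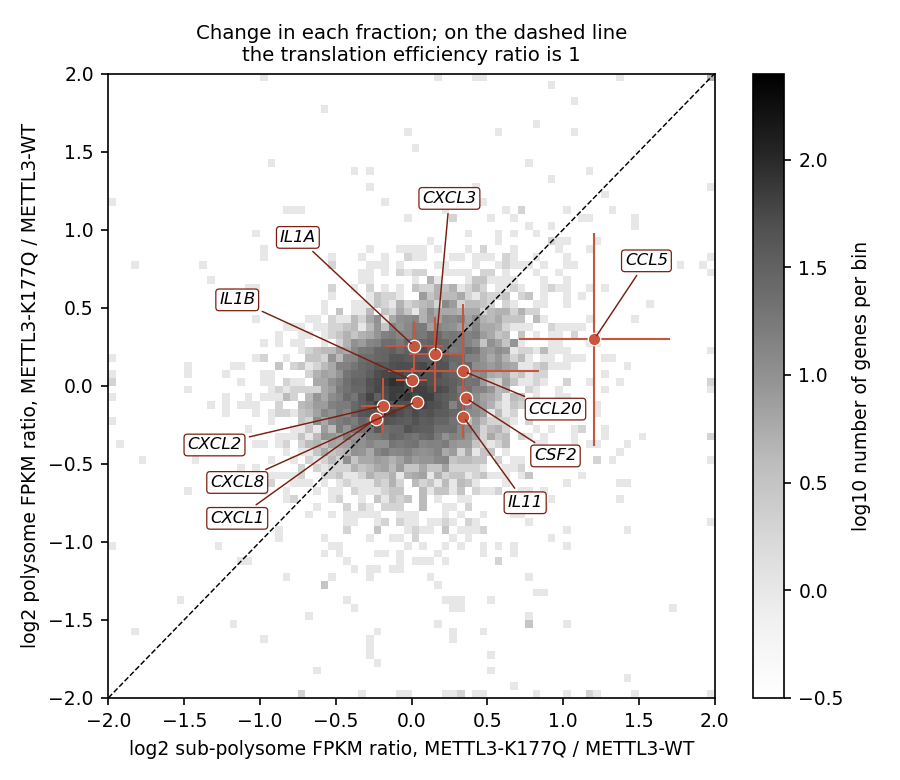
log2 fold, METTL3-K177Q over METTL3-WT, in the sub-polysome (x axis) and in the polysome fraction (y axis), with the 10 genes as red points carrying approximate 95% counting intervals and all kept genes as grey bins (log10 number of genes, values beyond the range drawn at its edge). IL11, CSF2, CCL20, CXCL8 and CCL5 lie below the dashed line of equal efficiency, and CXCL1 and CXCL2 lie close to it in the lower left quadrant.

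The sign of some of these ratios depended on how the libraries were scaled. Rescaling each library to the same total (TPM) moved the median log2 efficiency ratio of all genes from -0.01 to 0.29, and with equal totals apart from ribosomal protein genes it was 0.23. Under TPM, 18.6% of all genes were at least 1.5-fold higher and 2.83% lower, against 4.08% and 7.03% in FPKM. Relative to the median of all genes, the median of the 10 genes moved little, from -0.05 in FPKM to -0.04 under both of these scalings, and 5 of the 10 genes lay below the all-gene median in each. IL11, CSF2 and CCL5 had a log2 efficiency ratio below 0 in every setting computed, with ranges of -0.56 to -0.24, -0.45 to -0.14 and -0.94 to -0.62. For IL1A, IL1B, CXCL1, CXCL2 and CXCL3 the ratio was above 0 in every setting. CXCL8 and CCL20 went from -0.13 and -0.25 in FPKM to 0.16 and 0.04 under TPM. Within fractions, TPM moved the median log2 ratio of all genes from -0.004 to -0.21 in the sub-polysome and from -0.02 to 0.07 in the polysome fraction. These shifts turn the sign of the sub-polysome ratio of CXCL8, CXCL3, IL1A and IL1B and of the polysome ratio of CSF2, and leave those of CXCL1, CXCL2, IL11, CCL20 and CCL5 as they were.

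Coding-sequence length moved with these values. Across 10305 genes with a known coding length, the smooth trend of the log2 efficiency ratio on that length ran between -0.32 and -0.12 at the lengths of the 10 genes. IL11, CSF2 and CCL5 lay below this trend, by 0.35, 0.17 and 0.66, and the other 7 genes lay above it. The value of CCL5 takes its coding length as 465 bases. In METTL3-WT cells the trend of the log2 efficiency itself ran between -0.66 and 0.15 at these lengths, and 6 of the 10 genes, CXCL8, CXCL1, IL1A, IL1B, CSF2 and CCL20, lay above it. With the trend removed, the median log2 efficiency ratio was 0.17 for the 10 genes and -0.003 for all genes. The part of coding length in the differences between genotypes was not tested.

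**Figure D5:**
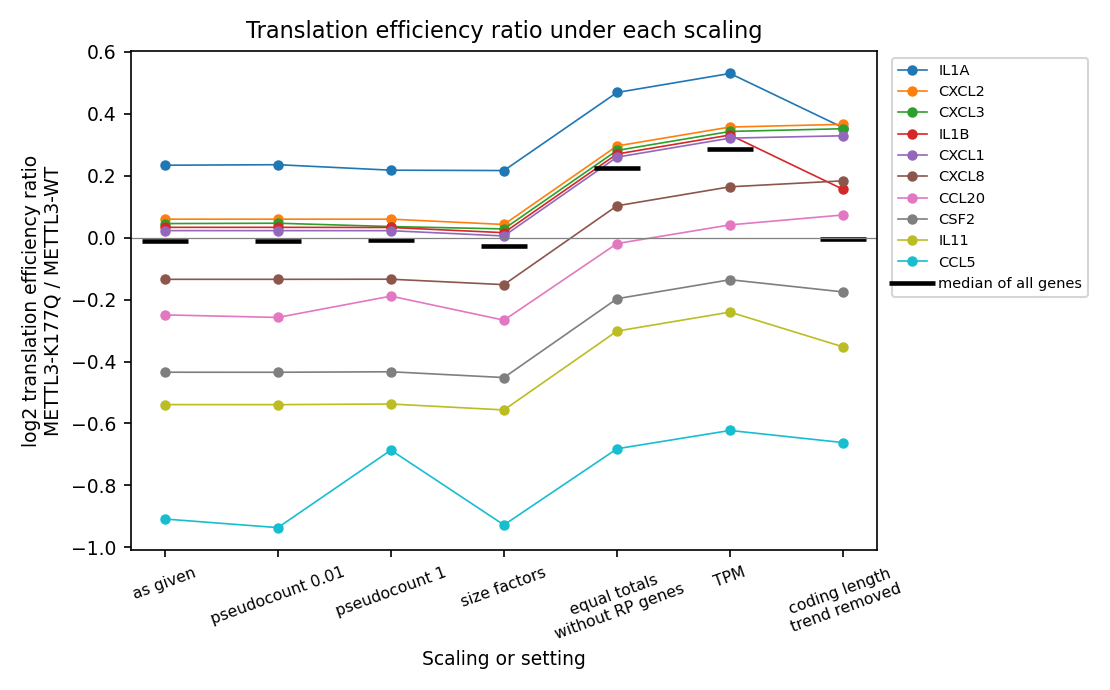
log2 translation efficiency ratio, METTL3-K177Q over METTL3-WT (y axis), of each gene under 7 scalings or settings (x axis), with the median of all genes as a black bar. The order of IL11, CSF2 and CCL5 at the bottom is the same in each setting, while all lines shift upward with the median of all genes under the scalings to equal totals.

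Receptors and natural inhibitors of these ligands were looked up as a list. Of 15 such genes, 4 passed the minimum of 1 FPKM, as did 10905 of the 28198 genes in the table. The 4 were CSF2RA, IL1RAP, IL11RA and IL1R1, and CXCR1, CXCR2, ACKR2 and CCR6 were among those listed at 0 in all 4 libraries. CSF2RA, the ligand-binding chain for CSF2, had 14.8 and 24.0 FPKM in the sub-polysome and polysome libraries of METTL3-WT and 19.3 and 27.5 FPKM in those of METTL3-K177Q cells, with a log2 efficiency ratio of -0.18 (counting SE 0.094). IL1RAP, the accessory chain of the IL-1 receptor, had 2.89, 3.08, 3.98 and 3.03 FPKM in the same order and a ratio of -0.47 (counting SE 0.15). In this list 0 of 4 genes reached 1.5-fold, against 4.08% of all genes higher and 7.03% lower, and the median was -0.06. Under TPM 1 of the 4, IL1R1, was higher by that much, as were 18.6% of all genes.

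Of 22 genes of the NF-kB pathway, 19 passed the minimum. NFKBIZ, an inhibitor-like nuclear cofactor that NF-kB induces, was the gene whose efficiency in METTL3-K177Q cells was higher by 1.5-fold or more (4.08% of all genes), and 0 were lower by as much. NFKBIZ had 5.98 and 3.02 FPKM in METTL3-WT and 4.90 and 3.78 FPKM in METTL3-K177Q cells, a log2 ratio of 0.59 (counting SE 0.14). The median of the list was 0.11, and the count of higher genes was 7 under TPM (18.6% of all genes), 4 with equal totals without ribosomal protein genes (13.9%) and 0 with a pseudocount of 1 FPKM, a minimum mean of 5 FPKM, median-of-ratios size factors or the coding-length trend removed. All 7 genes for the maturation and release of IL-1 passed the minimum, 0 reached 1.5-fold in either direction, and the median was -0.14. Under TPM 1 of them, CAPN2, was higher by that much, as were 18.6% of all genes. The most abundant were CAPN2, a calpain subunit, with 88.6 and 149 FPKM in METTL3-WT and 78.0 and 170 FPKM in METTL3-K177Q cells, and GSDMD, the pore-forming gasdermin D, with 49.4 and 155 against 53.7 and 153 FPKM. Their log2 efficiency ratios were 0.37 and -0.14.

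Markers of the cell line and some of other cells were present. All 6 of the MDA-MB-231 markers passed the minimum, with VIM between 677 and 1543 FPKM, while of 5 luminal or epithelial markers ESR1, PGR and CDH1 were below it and GATA3 and EPCAM passed, with means of 3.69 and 7.91 FPKM. Of 6 immune cell markers, PTPRC had at most 0.052 FPKM and CD3E was listed at 0, whereas CD14, CD68 and LYZ passed the minimum, with means of 43.4, 75.1 and 1.12 FPKM, the first 2 above those of the cell line markers MET and EGFR (12.6 and 10.9 FPKM). The summed immune list was 75.1 and 130 FPKM in METTL3-WT and 111 and 163 FPKM in METTL3-K177Q cells, higher in METTL3-K177Q in both fractions, and its part in the values above was not tested. The 3 stromal and endothelial markers summed to between 0.589 and 1.81 FPKM, and PECAM1 among them passed the minimum. METTL3 itself had 9.39 and 38.7 FPKM in METTL3-WT and 5.07 and 29.5 FPKM in METTL3-K177Q cells, and FPKM values cannot show which allele was read. IL6, left out of the group, had 174 and 186 FPKM in METTL3-WT and 194 and 218 FPKM in METTL3-K177Q cells and a log2 efficiency ratio of 0.07 (counting SE 0.039). In FPKM it was thus higher in METTL3-K177Q cells in both fractions, whereas the study reported lower IL6 mRNA and protein in these cells. Under TPM, IL6 stayed higher in the polysome fraction of METTL3-K177Q cells but was slightly lower in the sub-polysome fraction. The study measured RNA that was not separated on gradients, which is a different measure, and the discrepancy was not tested.

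Depth was similar in the 4 libraries. FPKM summed to between 767949 and 1037594 per library, 15773 to 16193 genes were above 0, and the lowest cluster of values, taken as 1 fragment, gives about 24800000 to 26700000 fragments per library.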

How the data were processed

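The data are 4 RNA-seq libraries from polysome profiling of MDA-MB-231 cells, 1 for each fraction (sub-polysome, polysome) and genotype (METTL3-WT, METTL3-K177Q). Per the labels, cells were given 100 µg/mL cycloheximide for 5 min and lysates ran on 10–50% sucrose. The authors deposited FPKM for each gene from strand-directional, poly(A)-selected libraries. The submitters' processing notes name STAR 2.7, StringTie 2.1.5 and hg38, and the gene annotation is not given in the sources used here. FPKM was used as deposited, and 4 further value columns, whose names carry replicate number 1 of the same genotypes and fractions, belong to no listed sample and were left unused.

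Translation efficiency was polysome over sub-polysome FPKM on log2(FPKM + 0.1), which understates differences of low genes, and ratios were METTL3-K177Q over METTL3-WT. Genes averaging 1 FPKM or more were kept, and 1.5-fold, the study's threshold, was used for counts. With 1 library per condition no test was made. The members and gene lists were chosen with earlier results of these data known, and the study itself selected RC3H1, IKBKG and CDH1 for higher translation efficiency in this experiment and CXCL3, IL6, CAV1 and GATA3 for lower RNA with less m6A. Every member is named, and other named genes are METTL3, IL6, for each list its genes past 1.5-fold or else the 2 most abundant, and for CXCL8 the 3 genes of most similar pattern. Marker genes were named from their own lists, and receptors present or listed at 0 after their values were seen. Some genes of the lists are not reported here by name.

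Depth is approximate. The product of FPKM and transcript length falls into clusters at the low end, the lowest of which (0.025 to 0.052 FPKM times kilobases, limits chosen after the values were seen) was taken as 1 fragment, and counting intervals are 1.96 SE from these fragments, for counting error only. Transcript positions, UTRs and coding lengths are those of canonical transcripts in GENCODE 44 on GRCh38, matched by symbol, and may not be those behind the FPKM. Of the kept genes, 94.5% had a coding length. Promoter sequences are from RefSeq (GRCh38.p14). The calculation was tested on simulated data. The alternatives were pseudocounts of 0.01 and 1 FPKM, no filter or a minimum mean of 5 FPKM, TPM, equal totals without cytosolic ribosomal protein genes, median-of-ratios size factors, removal of a lowess trend on log10 coding length (span 0.3) and a 2-fold threshold. Calculations ran in Python 3.11.15 (numpy 2.4.6, pandas 2.3.3, Biopython 1.88, statsmodels 0.14.6, scipy 1.17.1, matplotlib 3.10.9).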

Additional observations from a re-analysis of the deposited data

How the results depend on the processing

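No paired analysis was possible because each condition has 1 library, and for the same reason no replicate could be left out. Of the recomputed medians and counts over the 10 genes, 79 kept their sign or their count, 12 medians changed sign and 3 counts moved. Most of the 79 are counts of 0 or 1, which have no direction. Leaving out the filter could not change any value of the 10 genes, since all passed it. Some of the 79 moved far towards 0, the median log2 efficiency in METTL3-K177Q cells to -0.0086 under TPM and -0.23 when totals were equalised without ribosomal protein genes, and that in METTL3-WT cells to -0.066 under TPM. The median log2 efficiency ratio, -0.056 as reported, was 0.028 with a minimum mean of 5 FPKM (8 genes left), 0.24 under TPM, 0.18 with equal totals without ribosomal protein genes and 0.17 with the coding-length trend removed. The median log2 polysome ratio, -0.021 as reported, was 0.071, 0.016 and 0.078 under the last 3 of these settings, and the median log2 sub-polysome ratio, 0.095 as reported, was -0.11, -0.11 and -0.014. With the coding-length trend removed, the median log2 efficiency was 0.30 in METTL3-WT and 0.61 in METTL3-K177Q cells, against -0.20 and -0.44. The count of genes with lower efficiency, 1 as reported, was 0 with a minimum mean of 5 FPKM, which removes CCL5, and 0 at 2-fold. The count higher in the sub-polysome fraction, 1 as reported, was 0 with a minimum mean of 5 FPKM. CXCL8 had a log2 efficiency ratio of 0.16 under TPM, 0.10 without ribosomal protein genes and 0.18 with the trend removed, against -0.13. Of the other recomputed ratios of single genes, 58 stayed within their counting error, among them CCL20, whose sign changed under TPM and with the trend removed, and 17 moved beyond it. Except where genes drop out under the higher minimum, or where equal totals shift all genes together, the cause of these changes was not tested. Depth limits CCL20 and CCL5, with about 31 to 104 fragments per library.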

Other observations

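Chemokines and cytokines outside the group were also examined. Of 30 listed, 15 passed the minimum of 1 FPKM, with a median log2 efficiency ratio of -0.04, and in METTL3-K177Q cells the efficiency was lower by 1.5-fold or more for 5 (7.03% of all genes) and higher by as much for 0 (4.08% of all genes). LTB (lymphotoxin beta) had 87.9 and 53.7 FPKM in the sub-polysome and polysome libraries of METTL3-WT cells and 109 and 43.7 FPKM in those of METTL3-K177Q cells, a log2 ratio of -0.61 (counting SE 0.075). IL24, an IL-10 family cytokine, had 11.5 and 7.17 FPKM against 26.4 and 9.52 FPKM, a ratio of -0.79 (counting SE 0.12), with the METTL3-K177Q sub-polysome value the highest of the 4. The monocyte attractant CCL2 had 8.08 and 9.66 FPKM against 6.67 and 4.06 FPKM, a ratio of -0.96 (counting SE 0.26), with the METTL3-K177Q polysome value the lowest. IL15 and CCL28, at a mean of 2.34 and 1.05 FPKM, had ratios of -0.78 and -0.85. Under TPM, 16 of the 30 passed the minimum, and 3 were lower by as much (2.83% of all genes). These were CCL2, CCL28 and PF4, which was below the minimum in FPKM. The count of lower genes was 2 with equal totals without ribosomal protein genes (3.13%), 2 with the coding-length trend removed (3.93%), 3 with a pseudocount of 1 FPKM (4.76%) and 0 at 2-fold (1.90%). The count of higher genes was 1 under TPM, 1 with these equal totals and 1 with the trend removed, where 18.6%, 13.9% and 2.93% of all genes were higher.

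A list of 11 genes for proteins that bind AU-rich elements or other stretches of mRNAs had a median log2 efficiency ratio of 0.21. Of the 11 listed, 9 had a ratio above 0, as did 5332 of all 10905 genes. RC3H1 (roquin-1), which the study selected for higher translation efficiency in this experiment and which is therefore no independent observation, was the gene at least 1.5-fold higher (4.08% of all genes). It had 1.60 and 1.21 FPKM in METTL3-WT and 1.08 and 1.40 FPKM in METTL3-K177Q cells and a ratio of 0.72 (counting SE 0.15), and 0 genes of the list were at least 1.5-fold lower. The count of higher genes was 4 under TPM (18.6% of all genes) and 0 with a pseudocount of 1 FPKM, a minimum mean of 5 FPKM or the coding-length trend removed.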
